A study of Gossypium hirsutum with 4 samples.

Results

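Peaks of chromatin immunoprecipitation sequencing (ChIP-seq) crowded into 8 stretches of the chromosomes of upland cotton, Gossypium hirsutum, and these stretches are described here. The members were the peaks whose midpoint lay in A05 62.1 to 62.4 Mb, A07 66.3 to 66.4 Mb, A07 68.6 to 68.9 Mb, D05 46.4 to 46.6 Mb, D06 6.8 to 6.9 Mb, D06 18.8 to 18.9 Mb, D08 15.4 to 15.5 Mb or D12 37.3 to 37.4 Mb. There were 287 such peaks among the 18015 of the list labelled D53 and 322 among the 19400 of the list labelled B. The regions had been selected on peak number, since each of their 13 windows of 100 kb held at least 10 peaks in both lists. Peak numbers and spacing inside them therefore describe the choice and are given without a test, while scores and score ratios were not used to make it.

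The study profiled leaf chromatin with a FLAG antibody in 2 immunoprecipitates (IP), D53 and B, each set against its own input, with 1 library in each of the 4 groups. What B stands for, the genotype, the construct and its promoter, and the age of the plants are not given in the sources used here, and no IP from untagged plants is among the labels. Each list gives 1 whole-number score per peak, the authors' own value, whose definition is not given, and read depth is unknown. The labels give the number 2 to both B libraries and 1 to both D53 libraries, so the IPs do not carry the same number. With no replicates, no spread between libraries can be had, so differences between the IPs are values of these 2 libraries with no test.

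D53 is a repressor in the pathway of strigolactones, plant hormones that restrain shoot branching. In rice, where it was named, the hormone receptor and an F-box protein mark it for degradation when strigolactone is perceived, and until then it represses target genes through co-repressors of the TOPLESS type. Upland cotton is an allotetraploid, with A and D subgenomes that each carry a related copy of most genes. A ChIP-seq peak is a stretch with more sequenced fragments in the IP than in the input.

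The stated windows did not coincide with the clusters. Edges were found by joining neighbouring peaks of either list with at most 10 kb between them, starting from the members and taking the outermost joined peaks. Found this way, the regions spanned 974 kb in all. The longest were A05 62109718 to 62357555 (248 kb), A07 68623839 to 68864392 (241 kb) and D05 46385999 to 46595513 (210 kb). D08 15405592 to 15517056 was 111 kb long. The short ones were D12 37288598 to 37336919 (48.3 kb), A07 66313330 to 66356304 (43.0 kb), D06 6879417 to 6916789 (37.4 kb) and D06 18822903 to 18859297 (36.4 kb). These 4 clusters were each shorter than 50% of a 100 kb window.

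In 4 of the 8 regions an edge lay beyond the window, at the start of D05 and D12 and at the end of D06 6.8 Mb and D08. Within the edges D08 held 54 D53 and 62 B peaks, of which 9 and 11 lay outside the window. The D06 cluster at 6.8 Mb held 16 and 18, with 6 and 7 outside. D12 held 14 and 17, with 4 and 6 outside, and D05 held 46 and 57, with 3 and 5 outside. On A05, on A07 at both places and on D06 at 18.8 Mb, all peaks within the edges were members.

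Most clusters were followed by a long stretch without peaks. By definition no peak lay within 10 kb beyond an edge. For scale, the median gap within a list on the chromosomes outside the regions was 110 kb in D53 and 96.6 kb in B. The nearest peak of either list beyond an edge was 102 to 1041 kb away at 15 of the 16 edges. The exception was the left edge of A05, where the next peak lay 11.01 kb outside, just past the 10 kb allowed. There the pair at 62097979 to 62098679 scored 51 in D53 and 218 in B, and the pair at 62092336 to 62092551 scored 13 and 67. Another pair at 62058920 to 62059145, which lay 50.6 kb from the edge, scored 12 and 69. Their log2 ratios of D53 to B score, -2.10, -2.37 and -2.52, were like those inside the region. Joining peaks up to 20 kb apart moved the A05 edge outward to give 265 kb.

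Some edges were marked by a step in score as well. On A07 at 66.3 Mb the first D53 peak scored 6 and the first B peak 11. The pair at 66323779 to 66325803, 11.5 kb further in, scored 162 in D53 and 649 in B, the highest member score of both lists in the 8 regions. On D06 at 6.8 Mb the order was the other way round. The cluster opened with a pair of scores 115 and 401 at 6879442 to 6880203, and its last D53 peak, 37.3 kb along, scored 3 with no B partner. That 1 peak set the right edge. With the B list alone the cluster was 30.9 kb long and ended with a peak of score 75.

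**Figure D1:**
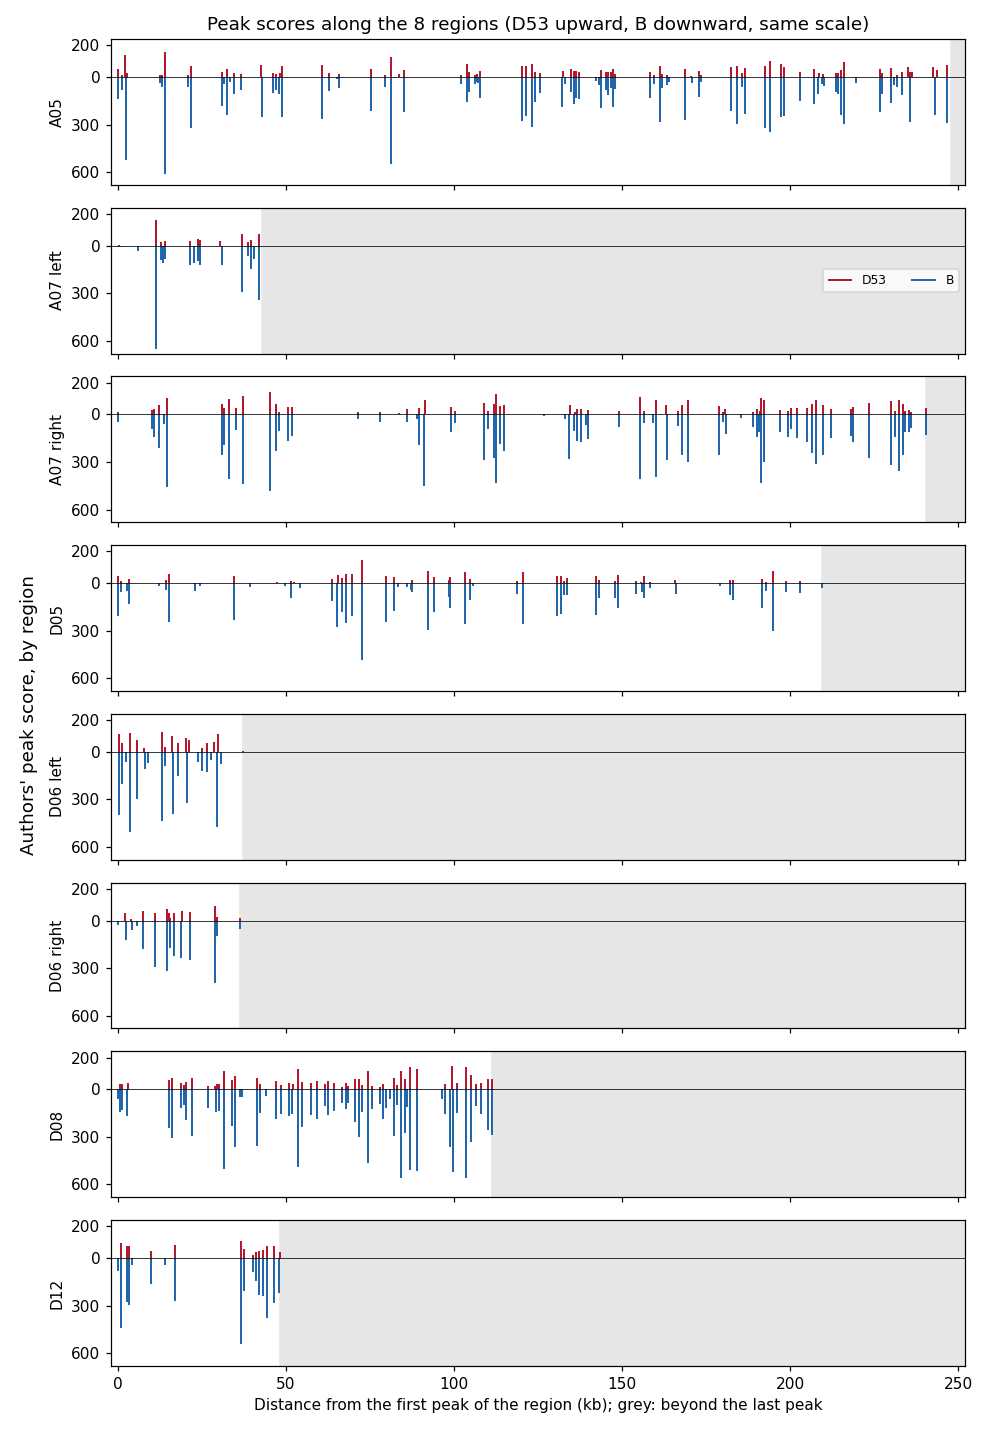
Authors' peak score (vertical axis, D53 upward and B downward on the same linear scale) against distance from the first peak of each region in kb, with 1 line per peak within the edges (left and right are 66.3 and 68.6 Mb on A07, and 6.8 and 18.8 Mb on D06). Tall D53 lines stand opposite tall B lines, the B lines are several times longer, and the peaks fall into runs separated by empty stretches, such as the 19.0 kb without a peak on D12.

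Inside the edges peaks came in runs. The joining of peaks at most 10 kb apart left 18 blocks, 4 each on A05 and on A07 at 68.6 Mb, 3 on D05, 2 each on D08 and D12, and 1 in each of the other three regions. The A05 blocks were 49.0, 24.8, 5.97 and 128 kb long. Between them lay 11.6, 16.6 and 12.1 kb without a peak of either list. On A07 at 68.6 Mb the blocks were 14.8, 21.5, 44.0 and 114 kb long. D12 was split by 19.0 kb into a block of 5 D53 and 8 B peaks and a block of 9 and 9 peaks. The longest empty stretch differed by less than 0.1 kb between the lists in 5 regions, for example 19.05 kb in D53 and 19.08 kb in B on A07 at 68.6 Mb, and 16.64 and 16.61 kb on A05. D05 differed, since its longest stretch without a D53 peak, 18.4 kb, held 2 B peaks with scores of 50 and 21.

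Gaps between neighbouring peaks within the edges had a median of 752 bp (D12) to 1940 bp (D06 at 18.8 Mb) for D53 and of 715 bp (D12) to 1772 bp (D06 at 18.8 Mb) for B. On A05 the median D53 gap was 1147 bp (quartiles 441 and 2650 bp) and the median B gap 908 bp (366 and 2707 bp). The quartiles of all regions overlapped in both lists, so the spacing of no region stood clear of the others. For scale, the median gap over members was 1.18 kb in D53 and 1.02 kb in B, against 110 kb and 96.6 kb on the chromosomes outside the regions. The choice of dense windows fixes the direction of that difference. The smallest gap in any region was 205 bp in D53 and 189 bp in B, close to the smallest gap anywhere in these lists, 200 bp and 187 bp.

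No long match of peak spacing between regions was found at a tolerance of 20 bp per step. Distances between consecutive midpoints were compared in all 28 pairs of regions, in both orientations and in each list. The longest run of consecutive distances that matched within 20 bp per step was 2, in D53 as well as in B. A duplicated arrangement would appear as a long run only where the same peaks were called and each distance was kept within 20 bp. Missed or extra peaks break a run, so a copy with different peaks called would not be seen. Shifted midpoints can break it too. Where 1 D53 and 1 B member overlapped only each other, their midpoints already differed by 9.75 bp in the median. The search therefore does not show that no region copies another.

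**Figure D2:**
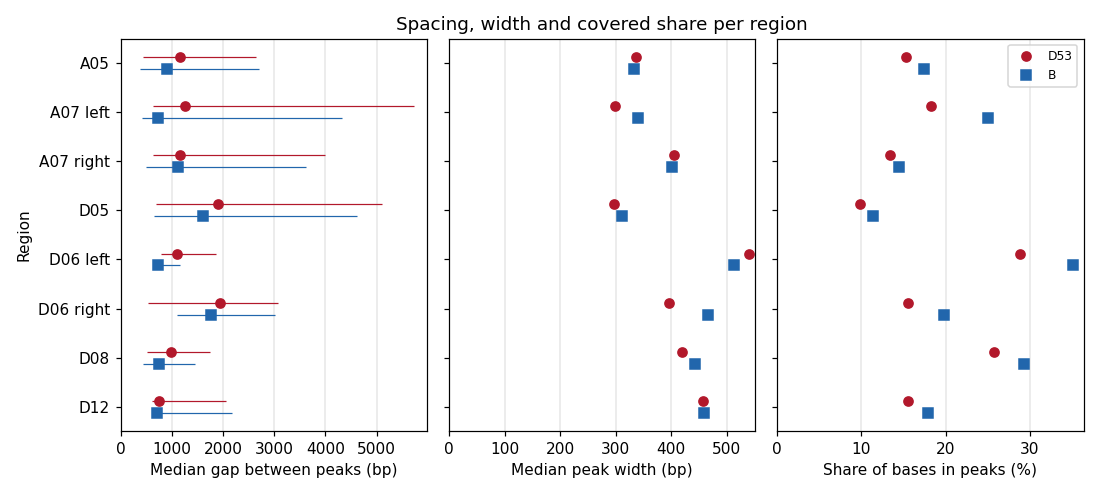
Median gap between peaks with quartiles as thin lines (left, bp), median peak width (centre, bp) and share of bases in peaks (right, %) for each region, D53 as circles and B as squares (left and right name the regions at 66.3 and 68.6 Mb on A07 and at 6.8 and 18.8 Mb on D06). D06 at 6.8 Mb and D08 have the highest covered shares in both lists and D05 has the lowest.

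Peaks were wider in some regions than in others. The median D53 member width was 539 bp on D06 at 6.8 Mb, 457 bp on D12 and 420 bp on D08, and it was 297 bp on D05 and 299 bp on A07 at 66.3 Mb. For B the highest median was 513 bp, again on D06 at 6.8 Mb, and the lowest 311 bp, on D05. Over the 9 B members on D06 at 6.8 Mb that had a D53 partner the median was 783 bp. Over all members the median width was 372 bp in D53 and 370 bp in B, against 265 and 248 bp outside on the chromosomes. Peaks of at least 1 kb made up 7.32% of D53 and 8.07% of B members, and 1.96% and 1.52% of the peaks outside. The widest closed the A05 region at its right edge, 62355446 to 62357555 in D53 (2110 bp, score 75) and 62355405 to 62357516 in B (2112 bp, score 292). Wider members also scored higher, with a Spearman rho of score and width of 0.71 in D53 and 0.73 in B across members, which are not independent. Within regions this rho ranged from 0.04 on D06 at 6.8 Mb to 0.82 on A07 at 66.3 Mb for D53, and from 0.21 on D06 at 18.8 Mb to 0.83 on D05 for B.

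The covered share, the part of the bases between the edges that lay in a peak, ordered the regions alike in both lists at its ends. In D53 it was 28.9% on D06 at 6.8 Mb and 25.8% on D08, 13.4% to 18.2% in 5 regions, and 9.85% on D05. In B it was 35.1% and 29.4% on the same leading regions, 14.5% to 25.1% in the same 5, and 11.4% on D05. D05 also had the fewest peaks per 10 kb, 2.20 in D53 and 2.72 in B, and D08 had the most, 4.84 and 5.56. Of the bases in D53 peaks, 93.9% to 98.3% also lay in a B peak, depending on the region. Of the bases in B peaks, 71.1% (A07 at 66.3 Mb) to 88.6% (A07 at 68.6 Mb) also lay in a D53 peak.

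Nearly every D53 member overlapped a B peak, 282 of 287 or 98.3% (95% Wilson interval 96.0 to 99.3), and 277 of the 322 B members, or 86.0% (81.8 to 89.4), overlapped a D53 peak. Over all peaks on the 26 chromosomes these shares were 37.2% of D53 and 36.7% of B. The regions had been chosen for many peaks in both lists, so a high overlap was favoured by the choice. All D53 members had a partner in 5 regions, and D05 had the most without, 3 of 43.

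Paired peaks sat almost on top of each other. In 268 pairs neither peak had a second partner, and there the midpoints of the D53 and the B peak were 9.75 bp apart in the median, and at most 50 bp apart in 93.3%. Outside, 51.2% of 2977 such pairs were at most 50 bp apart, with a median of 47.5 bp. Up to a B score of 399 the difference was smaller at higher scores. Among pairs with a B score of 20 up to 49 the median distance was 15 bp inside (14 pairs) and 32.5 bp outside (963 pairs), and from 50 up to 99 it was 9 bp (56 pairs) inside and 19 bp (299 pairs) outside. From 100 up to 199 it was 10.5 bp inside (92 pairs) and 15.5 bp outside (142 pairs), and from 200 up to 399 it was 10.5 bp (83 pairs) inside and 10.0 bp (29 pairs) outside. From 400 upwards it was 5.5 bp inside (22 pairs) and 16.5 bp outside, where there were only 2 pairs.

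The members without a partner were mostly narrow and low. The 5 D53 peaks scored 20 on A05, 6 on A07 at 68.6 Mb, and 4, 10 and 10 on D05, each below the D53 median of its region. The 45 B peaks had a median score of 40 and a median width of 216 bp, against a median score of 160 for B members with a partner. Of these 45, 43 scored below the B median of their region and 26 lay less than 1 kb from a D53 peak. The 2 exceptions were both on A07 at 66.3 Mb, at 66326818 to 66327076 with a score of 109 and at 66335749 to 66336047 with 112, where the regional B median was 109. The highest was on D08, 15485282 to 15485542, with a score of 115. A missing partner says only that no peak was called there.

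Scores differed between regions in both lists. The D53 median was 81 on D06 at 6.8 Mb (range 26 to 122), 55 on D12 (20 to 109), 49 on D06 at 18.8 Mb (11 to 92) and 41.5 on A07 at 68.6 Mb (6 to 144). It was 39 on D08 (15 to 141), 33.5 on A05 (7 to 157), 33 on A07 at 66.3 Mb (6 to 162) and 25 on D05 (4 to 146). The quartiles of neighbouring regions in this order overlapped throughout. The B median was 235 on D12 (range 43 to 545), 204 on D06 at 6.8 Mb (67 to 508), 177.5 on D06 at 18.8 Mb (27 to 393) and 155 on D08 (40 to 561). It was 148.5 on A07 at 68.6 Mb (12 to 482), 114.5 on A05 (15 to 609), 109 on A07 at 66.3 Mb (11 to 649) and 91.5 on D05 (16 to 486). D05 was lowest and the regions on D06 and D12 were the upper ones in both lists. For D06 at 6.8 Mb that place depended on the window. Over all peaks within its edges the medians were 68 in D53, still the highest, and 140 in B, below D08 (159.5 within its edges) and A07 at 68.6 Mb.

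Relative to all chromosome peaks the members ranked far higher in B than in D53. Members were 287 of the 9420 D53 peaks and 322 of the 9720 B peaks on the 26 chromosomes. They made up 36 of the 50 highest B peaks on chromosomes and 71 of the highest 100. In D53 they made up 0 of the highest 50 and 10 of the highest 100. Among the highest 500 there were 130 D53 and 224 B members. The highest D53 member scored 162, against 398 for the highest D53 peak outside the regions, whereas the highest B member scored 649, against 528 outside.

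Along each region the score went up and down from peak to peak, and its relation to position was weak in most regions. The Spearman rho of score with position lay between -0.34 (D12) and 0.29 (A07 at 66.3 Mb) for D53 and between -0.12 (D06 at 6.8 Mb) and 0.49 (A07 at 66.3 Mb) for B, values that describe peaks sharing a region. With each region cut between its edges into 3 equal parts from left to right, the D53 medians over all peaks in a part were 25, 33 and 46 on A05, 45, 42 and 38 on A07 at 68.6 Mb, 31.5, 38 and 17 on D05 and 38.5, 39 and 66 on D08. The B medians were 104, 100 and 166 on A05, 156.5, 158 and 148 on A07 at 68.6 Mb, 92, 131.5 and 70 on D05 and 143, 158 and 224.5 on D08. The D53 medians of A05 and the medians of both lists on D08 thus increased through the parts, and the D53 medians of A07 at 68.6 Mb decreased. In the short regions a part held few peaks. On A07 at 66.3 Mb the D53 medians were 27, 36 and 35 (4, 3 and 5 peaks), while the B medians increased throughout, 85, 117 and 136 (7, 4 and 6 peaks). On D06 at 6.8 Mb the medians were 76, 79 and 53 in D53 and 204, 237 and 119 in B, and on D06 at 18.8 Mb they were 47.5, 52.5 and 23 in D53 and 90, 234 and 100 in B. Both lists were highest in the right-hand part on A05 and D08. They were lowest there on D05, on D06 at 6.8 Mb and, by little, on A07 at 68.6 Mb. The middle part of D12 held 1 peak in each list.

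The peaks that stood out were the same places in both lists. On A05 the highest was 62123575 to 62124234, with scores of 157 in D53 and 609 in B. On A07 at 68.6 Mb it was 68668944 to 68669563, with 144 and 482. On D05 it was 46457943 to 46459248, with 146 and 486. On D12 it was 37325021 to 37325417, with 109 and 545, the first peak after the 19.0 kb stretch without any. On D06 at 18.8 Mb it was 18851662 to 18852056, with 92 and 393. The highest members of the lists were different places on D08 and on D06 at 6.8 Mb. Among the members on D08, D53 was highest at 15492335 to 15492874, with 141 in D53 and 511 in B. B was highest at 15489378 to 15490187, with 113 in D53 and 561 in B. Past the D08 window but within the edges, D53 scored higher, at 15504132 to 15505801 (147) and at 15508487 to 15509947 (143). On D06 at 6.8 Mb the places were 6892238 to 6892734, with 122 in D53 and 433 in B, and 6882770 to 6883300, with 121 and 508. Within a region the pairs kept much the same rank in both lists, and Spearman's rho was 0.75 (D06 at 18.8 Mb, 13 pairs) to 0.97 (D06 at 6.8 Mb, 9 pairs). This was no trait of the regions alone, since rho was 0.91 over all member pairs and 0.91 over the 3327 pairs outside.

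The ratio of D53 to B score varied far less than the scores. Over the 283 pairs of members the log2 ratio had a median of -2.01 (SD 0.42 over pairs, quartiles -2.21 and -1.83), while the log2 scores themselves had SDs of 0.95 in D53 and 0.99 in B. In pairs without a second partner the SD of the ratio was 0.34. Outside the regions, 3327 chromosome pairs had a median of -0.58 (SD 0.50), with SDs of the log2 scores of 1.28 and 1.23. A log2 ratio below -1.5 was found in 258 of the 283 member pairs (91.2%). The share was 10.5% of all pairs on the 26 chromosomes, members included, and 3.13% of the pairs outside the regions. These shares compare pairs within the same 2 libraries and carry no test.

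**Figure D3:**
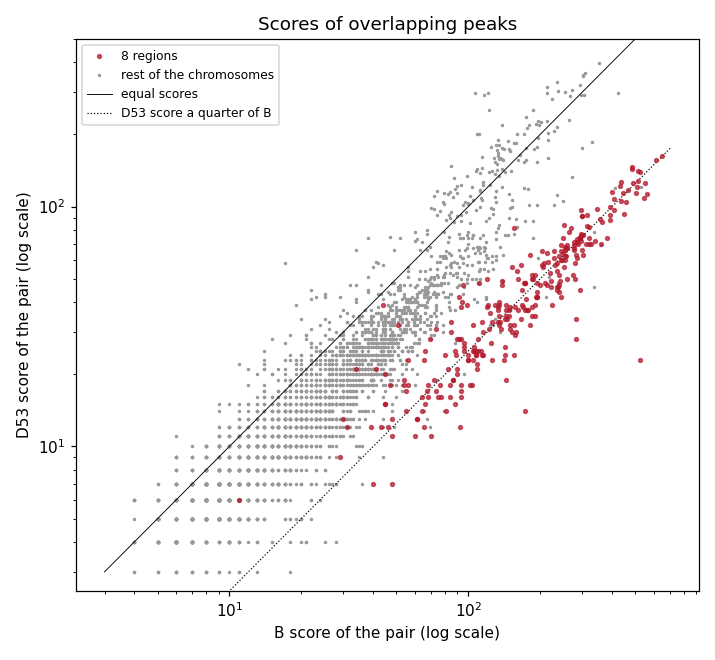
D53 score (vertical, log scale) against B score (horizontal, log scale) of overlapping peaks, 1 point per pair, for the 8 regions in red and the rest of the chromosomes in grey, with a solid line of equal scores and a dotted line where the B score is 4 times the D53 score. The regional pairs lie along the dotted line over most of the score range, and most other chromosome pairs lie above it.

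By region the median of this ratio was -2.19 on D12 (SD 0.27, 10 pairs), -2.12 on D06 at 18.8 Mb (SD 0.59, 13 pairs), -2.09 on D05 (SD 0.40, 40 pairs) and -2.06 on D08 (SD 0.27, 45 pairs). It was -1.97 on A07 at 68.6 Mb (SD 0.34, 69 pairs) and on A05 (SD 0.53, 85 pairs), -1.93 on A07 at 66.3 Mb (SD 0.42, 12 pairs) and -1.84 on D06 at 6.8 Mb (SD 0.20, 9 pairs). The whole range of the medians was 0.35. In terms of the medians the B score was 3.58 times the D53 score on D06 at 6.8 Mb and 4.56 times on D12. Both ends of this order rested on 9 and 10 pairs and depended on the windows. Over all pairs within the edges the medians were -2.12 on D05 and on D06 at 18.8 Mb, -2.07 on D12, -2.04 on D08, -1.97 on D06 at 6.8 Mb, on A05 and on A07 at 68.6 Mb, and -1.93 on A07 at 66.3 Mb. The order of the regions is therefore not firm.

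**Figure D4:**
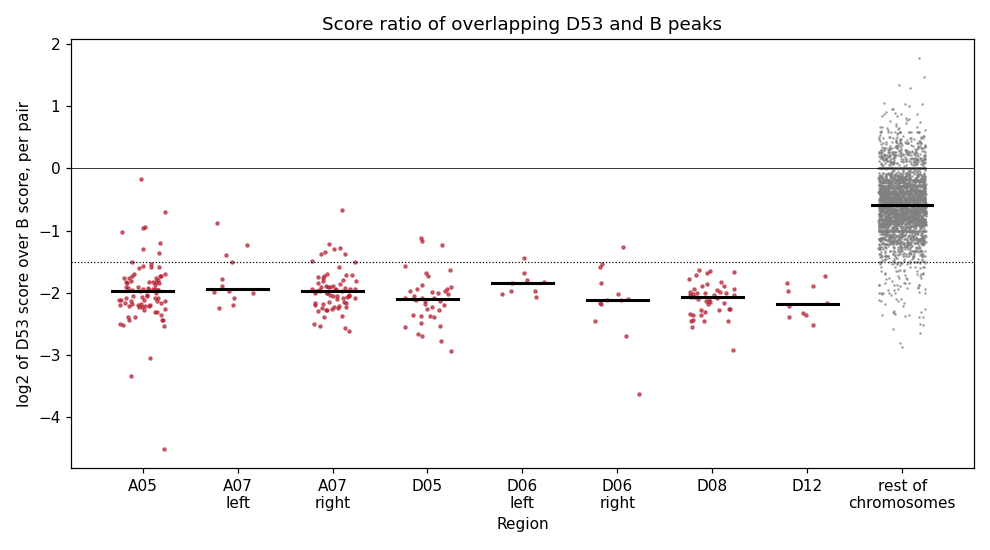
log2 of D53 score over B score for each overlapping pair (points, spread sideways for visibility) in the 8 regions and on the rest of the chromosomes, with the median as a black bar and a dotted line at -1.5 (left and right stand for 66.3 and 68.6 Mb on A07 and for 6.8 and 18.8 Mb on D06). All 8 regional medians lie between -2.19 and -1.84, and the median of the other chromosome pairs is -0.58.

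The ratio was also similar from block to block, though in some short regions with few pairs it was related to position. The medians of the 18 blocks lay between -2.21, in the second block of D12 with 9 pairs, and -1.73, in the third block of A05 with 7 pairs. On A05 the left, middle and right parts of the region had medians of -2.13, -1.92 and -2.05. On A07 at 68.6 Mb they had -1.87, -2.04 and -2.0, on D05 -2.14, -2.10 and -2.08, and on D08 -2.04, -2.16 and -2.05. On A07 at 66.3 Mb they had -1.70, -1.77 and -2.08 (4, 3 and 5 pairs), and the Spearman rho of ratio with position was -0.50. This rho was -0.60 on D12 (10 pairs), whose blocks had medians of -1.90 (5 pairs) and -2.21 (9 pairs). It was 0.37 on D06 at 6.8 Mb (9 pairs) and between -0.21 and 0.05 in the other regions. The pairs within the edges but outside the stated windows, which the choice of members had left out, numbered 23, and 21 of them lay below -1.5. Their median was -1.97 (SD 0.33).

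Some of the most extreme pairs joined peaks of unlike extent. Of the 16 pairs with the lowest or highest ratio of their region, 4 joined peaks whose widths differed by over 1.5 times, and in the other 12 the widths were closer. The lowest ratio of all, -4.51, joined a D53 peak of 249 bp at A05 62112496 to 62112744, with a score of 23, to a B peak of 1365 bp with a score of 523. That B peak also overlapped a D53 peak with a score of 139. The lowest on D06 at 18.8 Mb, -3.63, was likewise 14 against 173 where the B peak covered 2 D53 peaks, and the lowest on D08, -2.92, set a D53 peak of 221 bp against a B peak of 867 bp. The highest of all, -0.17 on A05, set a D53 peak of 1327 bp and score 39 against a B peak of 195 bp and score 44. Among pairs without a second partner, the lowest on D05 was 12 against 92 at 46437477 to 46437702 (-2.94). On A07 at 68.6 Mb the highest was 32 against 51 at 68709794 to 68710227 (-0.67). Of the 7 members with several partners, 5 were B peaks and 2 D53 peaks, and 5 lay on A05.

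The median ratio of member pairs was near -2 in every band of B score but the lowest. With a B score of 20 up to 49 the median log2 ratio was -1.58 (SD 0.63, 17 pairs), and from 50 up to 99 it was -1.95 (SD 0.47, 56 pairs). From 100 up to 199 it was -2.08 (SD 0.36, 97 pairs) and from 200 up to 399 -2.04 (SD 0.28, 88 pairs), where all 88 lay below -1.5. From 400 upwards it was -2.0 (SD 0.54, 24 pairs), a band that holds the pair at -4.51. In pairs without a second partner the SDs in these bands were 0.46, 0.47, 0.32, 0.22 and 0.17. Outside the regions the medians in the same bands were -0.68 (1098 pairs), -0.64 (344 pairs), -0.35 (158 pairs) and -0.11 (36 pairs) up to a B score of 399, with SDs of 0.47, 0.51, 0.69 and 1.01. Of those 36 pairs outside, 7 lay below -1.5. From 400 upwards all 24 pairs inside lay below -1.5, and so did 2 of the 3 pairs outside.

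Most pairs outside the edges had higher ratios than most pairs inside, but where the ratio changed could not be placed. At every edge but the left one of A05, the nearest pair outside was 129 to 1917 kb away. Within 1 Mb outside the edges there were 31 pairs, of which 18 belonged to A05 and none to D05. All 3 of them that lay below -1.5 were the A05 pairs at the left edge described above. The other 28 ranged from -1.46 to 0.39. For example, the first pair beyond the right edge of A05, 129 kb away, scored 26 in D53 and 22 in B. The first pair left of D06 at 18.8 Mb, 261 kb away, scored 11 in each list, and the first right of D08, 388 kb away, scored 7 and 8. Scores were lower there as well, since the flanking D53 peaks had regional medians of 3 to 13 and the B peaks of 8 to 25. The lowest D53 score on the chromosomes outside was 3, so a pair with a B score of 8 could not lie below -1.5.

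**Figure D5:**
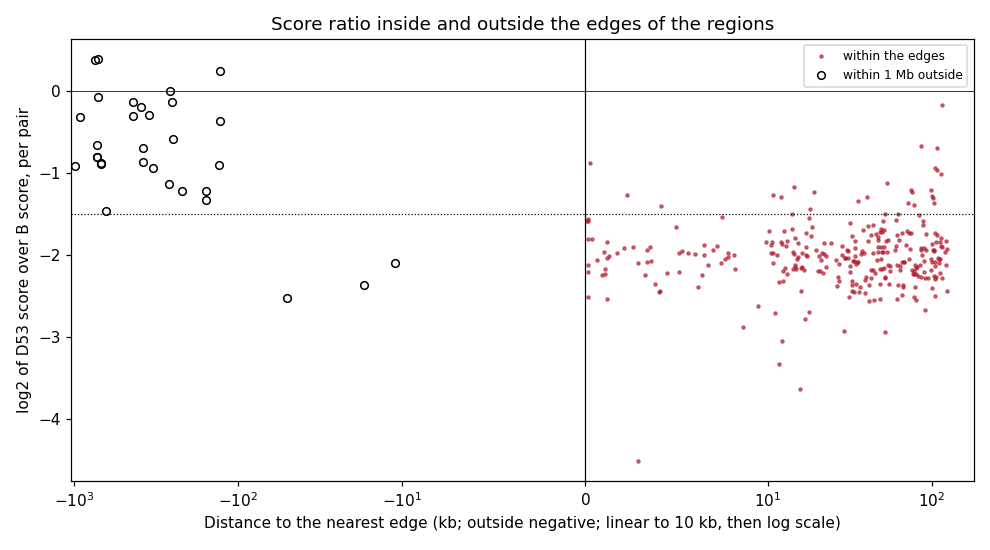
log2 of D53 score over B score against the distance of the pair to the nearest edge of its region (kb, outside negative, linear up to 10 kb and logarithmic beyond), for pairs within the edges (red) and within 1 Mb outside (open circles). Outside, 28 of 31 circles lie above the dotted line at -1.5, and the 3 below it are the pairs just left of A05.

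Windows close to the limit of 10 peaks in both lists were of different kinds. Just inside were D06 at 6.8 Mb and D12, with 10 D53 and 11 B peaks each in the window. Just outside was A12 41300001 to 41400000, with 11 D53 and 9 B peaks. Its median scores were 48 in D53 and 212 in B, and its 11 pairs had a median log2 ratio of -2.13, with 10 below -1.5. Next came D08 15500001 to 15600000 with 9 and 11 peaks, the continuation of the D08 region, at -1.89. A09 59200001 to 59300000 had 8 and 11 peaks with median scores of 111 and 114, and its 10 pairs had a median of 0.26. D08 39100001 to 39200000 (7 and 12 peaks, median ratio 0.01) and A11 25200001 to 25300000 (7 and 9 peaks, 0.32) were also high in both lists without a low ratio. A crowd of high peaks therefore occurred with the low ratio of the 8 regions and without it.

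No sequence or gene is given for these positions, since the sources used here name no genome build for the coordinates, and the gene table at hand is of the assembly Gossypium_hirsutum_v2.1. Whether the peaks fall in genes, repeats or other annotated features was not analysed here.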

How the data were processed

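Per the peak names, each of the 2 deposited lists sets a single IP library against a single input, with no pooling. The score of each peak is the authors' deposited value, and its definition, the aligner, the caller and the genome build are not given in the sources used here. Positions count from 1 in the coordinates of the lists. Members were peaks with midpoints in the stated windows. Peaks sharing at least 1 bp were paired, a low ratio was a log2 D53 to B score below -1.5, and shares carry 95% Wilson intervals, which cover counting error only. Widths, scores, ratios within regions and partner counts use members; edges, gaps, blocks, covered shares and the score medians of the 3 parts of a region use all peaks within the edges. Values outside the regions leave out peaks within the edges. Named peaks were the first, last, highest and widest members, the extreme pairs, and the unpartnered members at or above the regional median; others named were chosen after their values were seen. Members, lists and rules were chosen with earlier results of these data known. The functions were tested on simulated data with planted pairs, edges and spacing. Figures were drawn with matplotlib 3.10.9, intervals came from SciPy 1.17.1, and tables were handled in pandas 2.3.3 with NumPy 2.4.6 under Python 3.11.15.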

Additional observations from a re-analysis of the deposited data

How the results depend on the processing

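Of 244 alternative values, 228 stayed within the allowed range of the reported one and none changed sign. That range was the Wilson interval for shares of peaks or pairs and a factor of 1.5 for the rest, on the linear scale for score ratios. Only log2 score ratios and rank correlations could change sign. Some alternatives equalled the reported value by construction, such as counts within the edges where no peak lay outside the window. The regional median log2 ratio moved by at most 0.21, on A07 at 66.3 Mb with summed score times width (-2.15), and leaving out each region in turn gave -2.04 to -2.0 overall. Over shared peaks the median B width on D06 at 6.8 Mb was 783 bp. With the stated windows as length, the covered share fell to 7.84% in D53 and 10.8% in B on A07 at 66.3 Mb, to 7.11% and 7.21% on D06 at 6.8 Mb, to 5.64% and 7.23% on D06 at 18.8 Mb and to 5.59% and 6.16% on D12, because these windows are longer than the clusters. Counting within the edges gave 16 D53 and 18 B peaks on D06 at 6.8 Mb and 17 B peaks on D12. With midpoints at most 200 bp apart, 89.3% of D53 members on A05 were shared. Midpoints of A05 pairs without a second partner were at most 176 bp apart, so the members lost lay in pairs with a second partner. A tolerance of 50 bp lengthened the longest spacing match to 4. The medians over all peaks or pairs within the edges, and those over pairs of like width, were chosen after seeing the data. Also chosen then, a limit of -1 took in 97.9% of member pairs, against 22.0% of all chromosome pairs, members included. A limit of -2 took in 52.3%, against 5.12%. No paired analysis was possible because each group has 1 library, which also leaves none to be left out. Unknown depth limits every statement on missing partners.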
